A study of Oryza sativa with 36 samples.

Results

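Plasma membrane aquaporins (PIP) are the water channels of the plant cell surface, and their transcripts were measured in young panicles of 6 rice varieties under drought. The genes were found by symbol or synonym in the RefSeq annotation, as PIP1-1 to PIP1-3 and PIP2-1 to PIP2-7, which gave 10 genes. PIP2-3 has no probe set among those named here, so that 9 genes with 12 probe sets were described, of 17905 genes that have a probe set of their own on the array. Where a gene has several probe sets, the brightest was used.

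Aquaporins are membrane proteins that assemble as tetramers, and each monomer forms a pore for water and, in some members, for small solutes or gases. The PIP family falls into a PIP1 and a PIP2 group. PIP2 proteins are strong water channels when expressed alone in frog oocytes, and PIP1 proteins of maize need a PIP2 partner to reach the cell surface. In plants the family is known for setting the water permeability of root, leaf and growing tissues, and drought is known to change the transcripts of single members in different directions.

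Young panicles 2 cm long were harvested from plants in cement enclosed plots, either drought-stressed, on plots drained at the later tillering stage, or well watered. The varieties MILT1444, EMATAYIN, DOURADOAGULHA and HUHAN3 are drought tolerant, and KHAUMEO and NIPPONBARE are drought sensitive by the study's methods. By the same source DOURADOAGULHA and KHAUMEO are indica varieties, and the other 4 are japonica. Each variety and treatment has 3 arrays from independent experiments, which makes 12 groups and 36 Affymetrix Rice Genome Arrays, and a tolerance class rests on 4 tolerant and 2 sensitive varieties.

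The values are normalized intensities on a linear scale, and changes are given on the log2 scale as drought-stressed minus well watered. Tests were made with limma, with Benjamini-Hochberg adjustment over 57194 probe sets. A probe set that reached an adjusted p of 0.05 together with a 2-fold change is said to be called. The standard errors and p-values from limma measure the spread between arrays of a group, not between varieties. Array medians lay between 55.8 and 68.9. The summed intensity of 14 floral MADS-box genes was 40273 to 52215 in drought-stressed and 39862 to 53172 in well watered panicles. Their sum was thus high on every array, while single members had mean intensities from 88.9 (MADS13) to 7134 (MADS1). The root gene LSI2 lay between 14.6 and 28.3, and its average change was -0.25 (SE 0.06, adjusted p = 0.0025), lower in 6 of 6 varieties. Of the 6 meiosis genes measured, 4 were higher under drought by adjusted p alone, as 20.6% of all probe sets were, with DMC1A at 0.34 and PAIR2 at 0.28. The summed intensity of the 6 was 2707 to 7002 in drought-stressed and 2406 to 6235 in well watered panicles. The array of well watered MILT1444 replicate 3 had the lowest correlation with its mates (r = 0.985), and results that rest on it are also given without it. Bulk panicles cannot tell fewer cells of a type from less RNA per cell.

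PIP1-3, also named RWC3 in rice, rose under drought on the average of the 6 varieties by 1.43 on the log2 scale (SE 0.17, adjusted p = 3.4e-07), which is 2.70-fold. It was the only one of the 9 PIP genes that was called, against 0.383% of all probe sets called in the average response. PIP1-3 lies on chromosome 2 in the RefSeq annotation and is read by a single probe set. Its signal was low, between 7.67 and 109 over the 36 arrays and its median of 35.0 was below the median of every array.

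In EMATAYIN the PIP1-3 intensities were 70.1, 42.9 and 48.2 in drought-stressed panicles, against 14.2, 11.6 and 15.1 in well watered ones. KHAUMEO had 72.8, 61.0 and 73.4 in drought-stressed panicles, against 16.9, 20.1 and 21.7 in well watered ones. In MILT1444 the values were 47.8, 35.9 and 37.4 under drought, against 12.4, 7.67 and 20.5 with water. In these 3 varieties every drought-stressed array was above every well watered array, and all were called. The change was 1.95 in EMATAYIN (SE 0.41, adjusted p = 0.0470), 1.82 in KHAUMEO (SE 0.41, adjusted p = 0.0202) and 1.68 in MILT1444 (SE 0.41, adjusted p = 0.0192). These calls depended on the processing. None of the 3 was called with 50 added to each intensity. When each variety was fitted alone, the call was lost in MILT1444 (adjusted p = 0.142) and EMATAYIN (adjusted p = 0.0946). In EMATAYIN it was also lost with eBayes trend and robust (adjusted p = 0.0546), median centring (adjusted p = 0.0551) and scaling to ACT1 (adjusted p = 0.0561). In MILT1444 4 of 4 green tissue genes had a positive change as well, with a median of 0.71, and their part in its PIP1-3 change was not tested. In EMATAYIN 2 of 4 were positive, with a median of -0.05, and in KHAUMEO 0 of 4, with a median of -0.12.

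DOURADOAGULHA had 35.5, 34.6 and 43.2 under drought, against 15.8, 18.8 and 12.9 with water. Its arrays were also apart, but its change of 1.26 missed the adjusted threshold (SE 0.41, adjusted p = 0.0800). HUHAN3 had 54.1, 44.7 and 20.7 under drought, against 32.1, 10.9 and 14.0 with water. NIPPONBARE had 109, 64.1 and 52.7 under drought, against 87.0, 37.7 and 22.8 with water. In HUHAN3 and NIPPONBARE the treatments overlapped, and the changes of 1.12 (adjusted p = 0.105) and 0.77 (adjusted p = 0.216) were not called. Arrays apart and higher under drought were found for 8.16% of probe sets in EMATAYIN, 12.3% in KHAUMEO, 11.3% in MILT1444 and 13.1% in DOURADOAGULHA, against 11.8% in HUHAN3 and 16.5% in NIPPONBARE. The share of all probe sets called was 0.0629% in EMATAYIN, 0.351% in KHAUMEO, 0.67% in MILT1444, 0.315% in DOURADOAGULHA, 0.624% in HUHAN3 and 0.663% in NIPPONBARE.

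**Figure D1:**
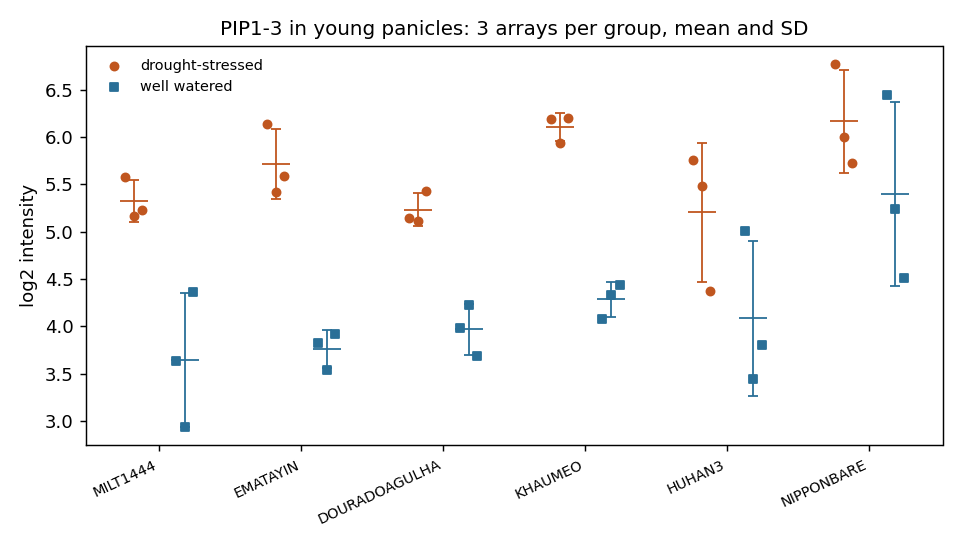
PIP1-3 log2 intensity (vertical axis) in 6 varieties (horizontal axis), with a point for each array, circles for drought-stressed and squares for well watered panicles, and the mean with its SD (n = 3). The drought-stressed arrays lie above the well watered ones in 4 varieties and overlap them in HUHAN3 and NIPPONBARE.

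The change was positive in 6 of 6 varieties, with a mean of 1.43 and an SD of 0.46 between varieties, and 15.6% of all probe sets were likewise positive in 6 varieties. It stayed positive in 6 of 6 in each of the 36 fits that leave out 1 array. Whether PIP1-3 responded differently among the varieties was tested directly, and an F test of the interaction between variety and treatment gave an adjusted p of 0.867. The calls in 3 varieties and not in the other 3 therefore do not show a difference between them. Tolerant varieties responded by 0.21 more than sensitive ones (SE 0.35, 95% interval -0.51 to 0.93, adjusted p = 0.949 from limma). A difference of up to 0.93 is not excluded by this interval. The interval measures the spread between arrays, so that it does not bound a difference between classes of varieties.

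Ordered by mean log2 intensity, PIP1-3 was highest in drought-stressed NIPPONBARE (6.16 ± 0.54, SD, n = 3), followed by drought-stressed KHAUMEO (6.11 ± 0.15) and EMATAYIN (5.71 ± 0.37). Well watered NIPPONBARE came next at 5.40 ± 0.97, above drought-stressed MILT1444, DOURADOAGULHA and HUHAN3 at 5.32, 5.23 and 5.20. The 5 other well watered groups stood last, between 4.28 ± 0.19 in KHAUMEO and 3.65 ± 0.71 in MILT1444. The arrays of each group overlapped those of its neighbour in this order. The largest step between neighbours, 0.92, was between drought-stressed HUHAN3 and well watered KHAUMEO.

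The size of the PIP1-3 change depends on how low intensities are treated. With 50 added to each intensity before the log, the average was 0.52 (adjusted p = 2.0e-06), which is less than a 2-fold change. Leaving out each of the 36 arrays in turn gave averages of 1.36 to 1.52, all called, while calls within a variety depended on single arrays. EMATAYIN was called in 12 of the 36 fits, HUHAN3 became called without well watered replicate 1 (1.58, adjusted p = 0.0354) or drought-stressed replicate 3 (1.54, adjusted p = 0.0263), and NIPPONBARE became called without well watered replicate 1 (1.29, adjusted p = 0.0371). MILT1444 was not called without drought-stressed replicate 1 (adjusted p = 0.117) or well watered replicates 1 or 2 (adjusted p = 0.0604 and 0.163), nor KHAUMEO without drought-stressed replicate 3 (adjusted p = 0.0803) or well watered replicates 2 or 3 (adjusted p = 0.104 and 0.0539). On average the meiosis genes given above moved with the treatment in the same direction. By variety their median change was -0.01 in EMATAYIN and -0.04 in KHAUMEO, with 3 of 6 positive in each. It was 0.23 in MILT1444, 0.23 in DOURADOAGULHA, 0.16 in HUHAN3 and 0.40 in NIPPONBARE, where 6 of 6 were positive. Their part in the PIP1-3 change was not tested.

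The other PIP1 members gave no such change. PIP1-1 had high signal on every array, between 6819 and 12571, and its drought changes ran from -0.20 in HUHAN3 to 0.12 in MILT1444, with an average of -0.05 (SE 0.05, adjusted p = 0.416), and 0.072 when scaled to ACT1. The 95% interval of this average ran from -0.16 to 0.05. PIP1-2 ranged from 2494 to 9080, and its average change was 0.09 (SE 0.10, adjusted p = 0.509).

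PIP1-2 was uneven in MILT1444, with 6692, 5135 and 6045 in drought-stressed panicles, against 2494, 3370 and 7203 in well watered ones. The high well watered value is that of replicate 3, and the change of 0.59 (SE 0.25, adjusted p = 0.192) was not called. Without that array the change was 1.03 (adjusted p = 0.0043) and was called, which brought MILT1444 to 2 called PIP genes. Without well watered replicate 1, which held the lowest value, the change was 0.27 (adjusted p = 0.617). The size of the PIP1-2 change in MILT1444 thus depended on which single array was left out. The summed intensity of 4 green tissue genes in the well watered MILT1444 arrays was 4045, 8095 and 11612 for replicates 1 to 3, against 13792, 10624 and 9534 in the drought-stressed ones, and its part in the PIP1-2 values was not tested.

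Among the PIP2 members no gene was called in any variety or on average. PIP2-6 and PIP2-1 had bright, even signals, from 5963 to 9368 and from 5222 to 8884. PIP2-6, which in rice is known to carry arsenite as well as water, was lower under drought in 6 of 6 varieties. Its average change of -0.15 passed the adjusted p but not the fold threshold (SE 0.04, adjusted p = 0.00135). The adjusted p alone was passed by 21.5% of all probe sets in this direction and by 20.6% in the other. When scaled to ACT1, which itself changed by -0.13, the PIP2-6 average was -0.028 (adjusted p = 0.577). In KHAUMEO it had 7021, 6561 and 6509 under drought, against 7113, 7569 and 8072 with water. In NIPPONBARE it had 7655, 7628 and 7757 under drought, against 9368, 8496 and 8299 with water. The arrays of these 2 varieties were apart, with every drought-stressed array the lower, as were 10.4% of probe sets in KHAUMEO and 17.4% in NIPPONBARE.

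PIP2-1 was also lower in 6 of 6 varieties, with changes of -0.03 to -0.29, and its average was -0.11 (SE 0.06, adjusted p = 0.108), but 0.016 when scaled to ACT1. This sign count depended on single arrays, and it held in 32 of the 36 fits that leave out 1 array. The MILT1444 change was 0.024 when drought-stressed replicate 2 was left out and 0.13 when well watered replicate 3 was, that of EMATAYIN was 0.028 without drought-stressed replicate 1, and that of DOURADOAGULHA was 0.0023 without well watered replicate 3. For PIP2-6 the count held in 36 of 36. Signs alone set these genes little apart, since 17.4% of all probe sets were lower in 6 varieties and 15.6% were higher. PIP2-1 has another bright probe set, with a mean intensity of 6144, whose average change was -0.26 (SE 0.06, adjusted p = 8.8e-04) and which reached -0.57 in HUHAN3 (adjusted p = 0.0255). Its dim probe set, with a mean of 8.44, had an average of -0.00 (adjusted p = 0.985). The brightest probe set is of a class (suffix x) whose probes can match more than 1 transcript. PIP2-1 lies next to PIP2-5 on chromosome 7, with 0 annotated genes between them. PIP2-4 lies on the other side of PIP2-5, with 1 annotated gene between PIP2-4 and PIP2-5.

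**Figure D2:**
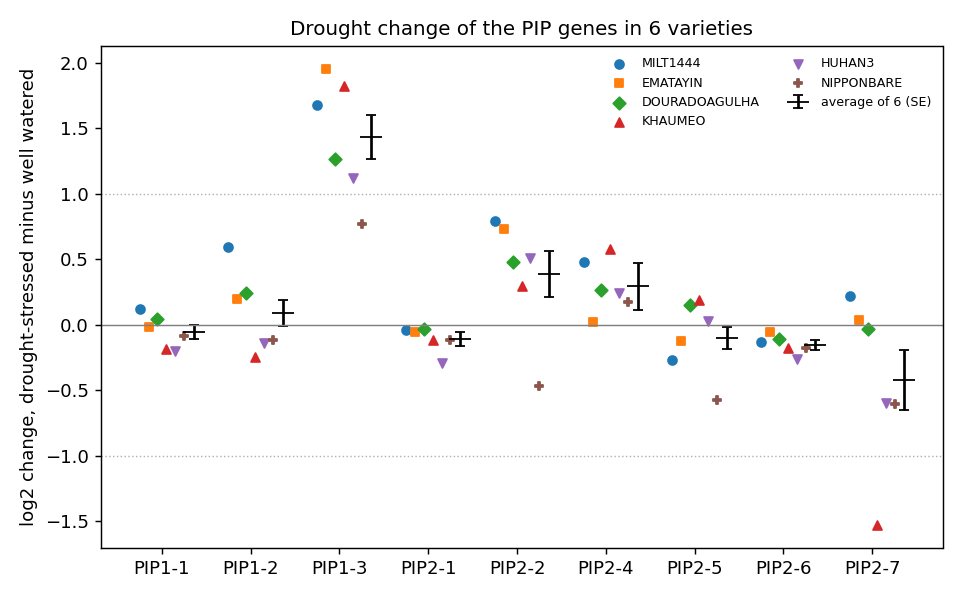
Log2 change, drought-stressed minus well watered (vertical axis), of the 9 PIP genes (horizontal axis), with a symbol for each variety and a black bar for the average with its SE, and dotted lines at a 2-fold change. PIP1-3 is the only gene whose average is past the line, at 1.43, and PIP2-7 in KHAUMEO at -1.53 is the lowest value.

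PIP2-5 had a low signal, from 34.7 to 143, and its protein is known from the endodermis of rice roots. Its average change was -0.10 (SE 0.08, adjusted p = 0.344), or 0.024 when scaled to ACT1, and its lowest was -0.58 in NIPPONBARE (adjusted p = 0.0670). There the drought-stressed arrays had 44.4, 38.9 and 57.8, against 92.0, 56.6 and 64.0 in well watered ones, so that the treatments overlapped slightly.

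PIP2-7 had the largest standard error of the 9 genes, 0.56 within a variety, with drought-stressed DOURADOAGULHA at 50.4, 141 and 350. In KHAUMEO it had 249, 465 and 455 in drought-stressed panicles, against 857, 1389 and 1065 in well watered ones. Those arrays were apart, but the change of -1.53 was not called (SE 0.56, adjusted p = 0.155). The green tissue sum in KHAUMEO was 4483 to 7922 under drought, against 6580 to 10301 with water, and its part in this value was not tested. In NIPPONBARE the arrays were also apart, with 959, 1087 and 1081 under drought, against 1962, 1693 and 1199 with water. On average PIP2-7 changed by -0.42 (SE 0.23, adjusted p = 0.143).

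The PIP2-7 response was 0.97 higher in tolerant than in sensitive varieties (SE 0.49, unadjusted p = 0.0560 and adjusted p = 0.803 from limma), the largest such difference in the family. In tolerant varieties its change ran from -0.60 in HUHAN3 to 0.22 in MILT1444. In sensitive ones it was -0.61 in NIPPONBARE, as in HUHAN3, and -1.53 in KHAUMEO. In limma 0 of the 9 genes were called for this contrast and 0 had an unadjusted p under 0.05, against 0% of all probe sets called and 6.28% with such a p. In the interaction F test over the 6 varieties 0 of 9 genes passed, also at an unadjusted p of 0.05, against 0.0542% of all probe sets by adjusted and 7.32% by unadjusted p. Between indica and japonica varieties 0 of 9 responses were called, against 0.0105% of all probe sets. An unadjusted p under 0.05 was found for 1 of 9 (PIP2-5, 0.41, SE 0.18, adjusted p = 0.518), against 8.85% of all probe sets.

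PIP2-4 and PIP2-2 had positive average changes that did not pass the test. PIP2-4 was higher under drought in 6 of 6 varieties, by 0.02 to 0.58, with an average of 0.29 (SE 0.18, adjusted p = 0.189). The 6 of 6 held in 30 of the 36 fits that leave out 1 array, and in the other 6 the change of MILT1444, EMATAYIN or HUHAN3 lay between -0.14 and -0.07. In MILT1444 it was -0.10 without well watered replicate 1, against 1.20 without well watered replicate 3. PIP2-2 changed by 0.39 (SE 0.18, adjusted p = 0.0789), from -0.47 in NIPPONBARE to 0.79 in MILT1444. Scaled to ACT1 both passed the adjusted p, PIP2-4 at 0.42 (adjusted p = 0.0452) and PIP2-2 at 0.51 (adjusted p = 0.0139). The other PIP2-2 probe set, dimmer with a mean of 33.3, went the other way at -0.31 (SE 0.08, adjusted p = 0.0035), so that the direction of PIP2-2 under drought is not settled by these probes. The brighter one, with a mean of 136, is of a class (suffix s) whose probes can match more than 1 transcript.

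Differences between varieties passed the test in level. The well watered level of 8 of 9 PIP genes differed among the 6 varieties in an F test, all but PIP2-1 (adjusted p = 0.170), against 34% of all probe sets. Without well watered NIPPONBARE replicate 1 only 4 of 9 passed. In well watered panicles, 3 of 9 genes were called lower in tolerant than in sensitive varieties, against 1.39% of all probe sets called lower. They were PIP2-4 at -1.63 (SE 0.26, adjusted p = 3.5e-05), PIP2-7 at -1.31 (SE 0.34, adjusted p = 0.0088) and PIP2-2 at -1.07 (SE 0.27, adjusted p = 0.0052). Well watered PIP2-7 means in tolerant varieties ran from 7.12 in DOURADOAGULHA to 10.10 in EMATAYIN on the log2 scale. The sensitive varieties KHAUMEO and NIPPONBARE stood at 10.08 and 10.63, so that EMATAYIN was level with KHAUMEO. The PIP2-2 levels here and below rest on its brighter probe set, of suffix s, and those of the dimmer one are not given. PIP1-3 at -0.98 (SE 0.25, adjusted p = 0.0066) and PIP2-6 at -0.17 (SE 0.05, adjusted p = 0.0323) passed the adjusted p alone, as 7.39% of all probe sets did in this direction.

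In these genes NIPPONBARE held the highest values. PIP2-4 had 2047, 1694 and 1632 in drought-stressed NIPPONBARE, against 1965, 1315 and 1535 in well watered NIPPONBARE. In KHAUMEO, the other sensitive variety, it had 500, 756 and 716 under drought, against 283, 449 and 642 with water. Every NIPPONBARE array was above every array of the other 5 varieties, whose highest value was 1041 in HUHAN3. EMATAYIN was the lowest, with 125, 125 and 164 under drought, against 119, 116 and 178 with water.

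With KHAUMEO as the only sensitive variety, 0 of 9 genes were called in well watered panicles, against 4.54% of all probe sets. With NIPPONBARE as the only one 4 of 9 were called lower, against 3.57%. An exact permutation test over the 15 ways to choose 2 of the 6 varieties gave p = 0.133 for PIP2-4, 0.2 for PIP2-2, 0.4 for PIP2-7 and 0.0667 for PIP1-3, and 0.0667 is the smallest that this design allows. Set against the mean of the other 5 varieties, a comparison chosen after the values were seen, well watered NIPPONBARE was 2.43 higher in PIP2-4 (SE 0.34), 2.24 in PIP2-2 (SE 0.34), 1.45 in PIP1-3 (SE 0.31) and 1.38 in PIP2-7 (SE 0.44). In drought-stressed panicles it was 2.28 higher in PIP2-4 (SE 0.34) and 1.21 in PIP2-2 (SE 0.34), and the share of all probe sets called higher was 3.92% there and 4.01% in well watered panicles. Under drought PIP2-4 was the 1 gene of 9 called lower in tolerant than in sensitive varieties, at -1.76 (SE 0.26, adjusted p = 1.1e-05), against 1.21% of all probe sets. With KHAUMEO as the only sensitive variety it was also the 1 called lower, at -1.02 (SE 0.34, adjusted p = 0.0355), against 1.46%. The drought-stressed PIP2-4 log2 means were 9.34 in KHAUMEO and 9.32 in tolerant HUHAN3, whose arrays overlapped. Those of MILT1444, DOURADOAGULHA and EMATAYIN were 8.51, 8.33 and 7.09. These contrasts under drought, and those with a single sensitive variety, were likewise chosen after the values were seen. Their p-values measure the spread between arrays, not between varieties.

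**Figure D3:**
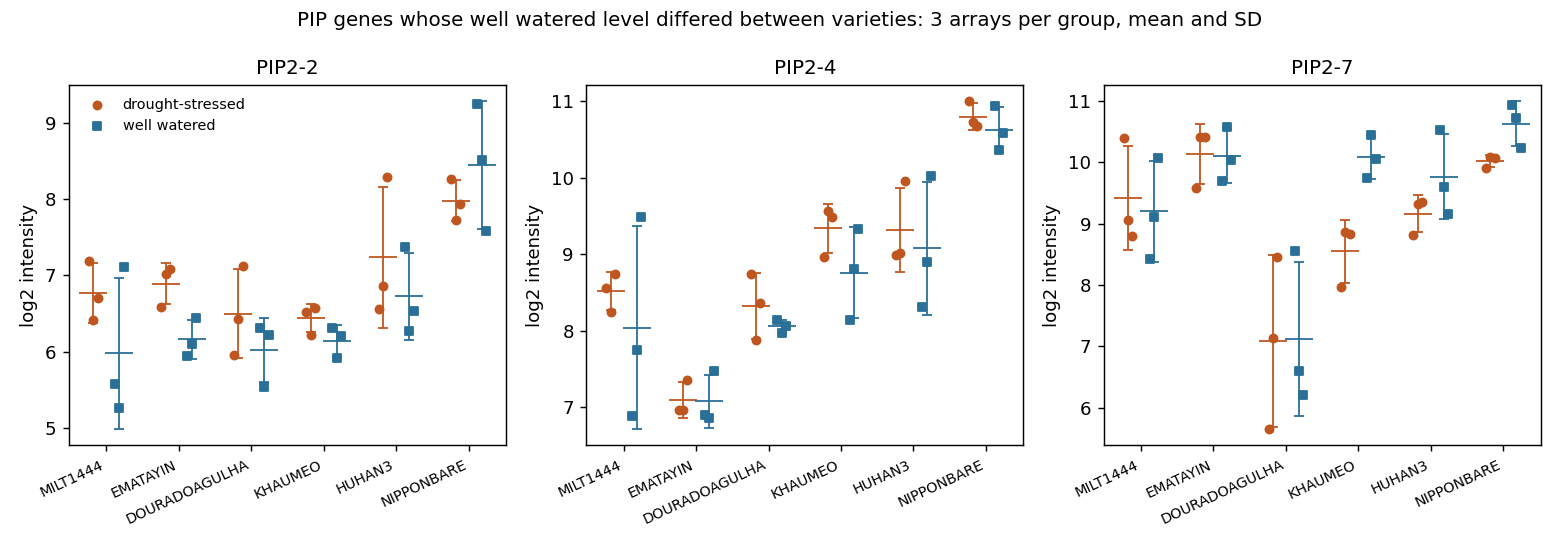
Log2 intensity (vertical axes) of PIP2-2, PIP2-4 and PIP2-7 in 6 varieties (horizontal axes), with a point for each array, circles for drought-stressed and squares for well watered panicles, and the mean with its SD (n = 3). NIPPONBARE stands above the other varieties in PIP2-4 under both treatments, and DOURADOAGULHA has the lowest PIP2-7 values.

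PIP2-2 in NIPPONBARE had 307, 212 and 246 under drought, against 608, 367 and 191 with water, a spread wider than in KHAUMEO, which had 91.7, 74.8 and 95.0 under drought, against 79.4, 60.2 and 74.0 with water. The green tissue sum was 13226 to 13778 in drought-stressed and 13731 to 14339 in well watered NIPPONBARE, against 4045 to 13792 in the other varieties, and its part in the NIPPONBARE levels was not tested. The study's methods state that the array design follows the Nipponbare genome annotation. Sequence differences between NIPPONBARE and the other varieties under the probes were not tested either.

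Between indica and japonica varieties the well watered level of PIP2-7 was called lower, at -1.33 (SE 0.34, adjusted p = 0.0038), as 1 of 9 genes, against 4.13% of all probe sets. PIP2-5 at -0.49 (adjusted p = 0.0040) and PIP2-2 at -0.75 (adjusted p = 0.0357) passed the adjusted p alone, as 16.1% of all probe sets did in this direction. The 2 indica varieties themselves did not overlap in PIP2-7, since well watered DOURADOAGULHA had 377, 96.5 and 73.8, each below every well watered value of KHAUMEO given above. The well watered log2 mean of KHAUMEO, 10.08, was above those of the japonica varieties HUHAN3 (9.76) and MILT1444 (9.20). It was below those of EMATAYIN (10.10) and NIPPONBARE (10.63), so that only DOURADOAGULHA (7.12) was below all japonica varieties.

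Several PIP genes moved together between arrays of the same group. As deviations from the group mean over 36 arrays, PIP1-1 went with PIP2-1 (r = 0.88) and with PIP1-2 (r = 0.86), and PIP1-2 went with PIP2-1 (r = 0.83). Over the 36 pairs of PIP genes the median was 0.40, and 16 pairs were over 0.5. PIP1-3 and PIP2-5 stood outside this pattern, with correlations of -0.15 to 0.38 for PIP1-3 and of -0.09 to 0.31 for PIP2-5. The pattern did not follow brightness alone. PIP2-2, with a mean of 136, went with PIP1-1 (r = 0.77), while PIP2-7, with a mean of 814, was at 0.08 with PIP2-6 and at 0.58 with PIP2-2. The pairs share their arrays and normalization, and the values are a description with no test.

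Some arrays were high or low in several PIP genes at once. In well watered MILT1444 replicate 3, 8 of 9 PIP genes were above their group mean, by 0.61 on average over the 9. In well watered NIPPONBARE replicate 1 it was 9 of 9, by 0.38, and in drought-stressed HUHAN3 replicate 3 it was 8 of 9, by 0.27, with PIP1-3 the exception at -0.83. In well watered MILT1444 replicate 1 it was 0 of 9, with a mean deviation of -0.41. The same count of 0 was found in well watered NIPPONBARE replicate 3 (-0.29) and drought-stressed MILT1444 replicate 2 (-0.19). Without well watered MILT1444 replicate 3 the MILT1444 changes were 2.03 for PIP1-3 (adjusted p = 0.0067), 1.36 for PIP2-2 (adjusted p = 0.0623) and 1.20 for PIP2-4 (adjusted p = 0.0633). Without well watered MILT1444 replicate 1 they were 1.67 (adjusted p = 0.0604), 0.59 (adjusted p = 0.573) and -0.10 (adjusted p = 0.932).

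**Figure D4:**
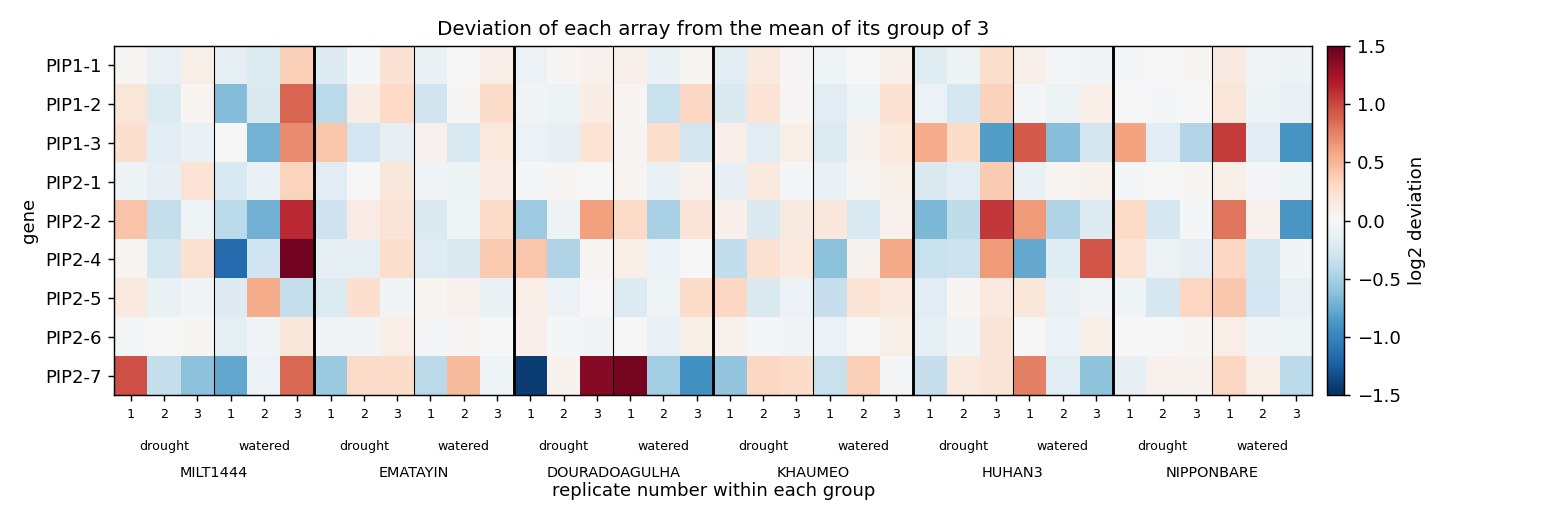
Log2 deviation of each array from the mean of its group of 3 (colour, red above and blue below), for the 9 PIP genes (rows) on 36 arrays (columns, by variety, treatment and replicate number). Well watered MILT1444 replicate 3 is above its group mean in 8 of 9 genes and well watered NIPPONBARE replicate 1 in 9 of 9.

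The other aquaporins were measured on the same arrays. The tonoplast group (TIP), which carries water across the vacuole membrane, had 8 of 11 listed members measured and none called on average, against 0.383% of all probe sets, with a median change of -0.08 against -0.05 for the 9 PIP genes and -0.01 for all probe sets. By adjusted p alone TIP3-1 was higher (0.21, SE 0.07) and TIP2-1 (-0.25, SE 0.09) and TIP1-2 (-0.22, SE 0.07) were lower, as 20.6% and 21.5% of all probe sets were. Of the NIP group, which includes the silicon channel of rice roots, 5 of 12 were measured and none called. There NIP2-2 (-0.29, SE 0.11) and NIP2-1 (-0.20, SE 0.08) were lower by adjusted p alone, against the same 21.5%. NIP4-1 passed it at 0.35 (SE 0.13), but its mean log2 intensity was only 2.67, and no detection call shows that this probe set was above background. Both SIP genes, known from the endoplasmic reticulum in Arabidopsis, were near 0 (-0.04 and -0.00), as was PIP2-8 (0.00).

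By correlation over the 12 group means, the genes with a pattern most like PIP1-3 were OsUGE-1 (r = 0.94), the expansin EXPB7 (0.93), OsCXXS1 (0.92), the expansin EXP29 (0.92) and the expansin-like EXLA2 (0.91). For PIP1-1, the member with the highest mean intensity, they were OsTrx14 (0.96), AOX1 (0.96), AT1 (0.95), OsNrx1-1 (0.95) and PETE (0.95). These are the highest values among all named probe sets and carry no test.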

How the data were processed

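The authors hybridized panicle RNA to the Affymetrix Rice Genome Array and summarized probe sets with RMA in the Affy package, of unstated version. The deposited intensities are linear and run between 1.0 and 21698.89. RMA returns log2 values, and how they became linear is not stated.

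After a log2 transform, limma 3.58.1 (R 4.3.3) was run on 57194 probe sets without the 187 controls, with 12 group means over all 36 arrays and standard eBayes. P-values were adjusted by Benjamini-Hochberg within each contrast, and F tests were called on the adjusted p only. The fit was tested on simulated data. Names came from the platform annotation, where 22436 probe sets have 1 gene, 95 several and 34663 none, and from RefSeq synonyms (ASM3414082v1).

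Every PIP gene was named, as were the 5 probe sets most correlated with PIP1-3 and with PIP1-1 and the 3 largest average changes of each other aquaporin list. Members and lists were chosen with earlier results of these data known. Alternatives covered eBayes with trend and robust, quantile normalization, median centring, scaling to ACT1, an offset of 50, only probe sets brighter than the median, averaged probe sets, single varieties, a replicate block, other call rules and leaving out each array. Contrasts with 1 sensitive variety, NIPPONBARE against the others, and levels under drought were added after the data were seen. Groups of 3 arrays limit the precision. Detection calls, scan dates and sequences were not used here.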

Additional observations from a re-analysis of the deposited data

How the results depend on the processing

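The number of PIP genes called depends on PIP1-3. With 50 added before the log it was 0 in MILT1444, EMATAYIN, KHAUMEO and the average, against 1 each. With only the probe sets brighter than the median it was also 0 in these 4, since that filter removed PIP1-3. Each variety fitted alone gave 0 in MILT1444 and EMATAYIN, and EMATAYIN was also at 0 with eBayes trend and robust, median centring and scaling to ACT1. DOURADOAGULHA, at 0, had 1 when scaled to ACT1. With the 2-fold limit kept, an unadjusted p gave 1 in DOURADOAGULHA, 1 in HUHAN3 and 2 in KHAUMEO, against 0.696%, 0.99% and 0.789% of all probe sets. By adjusted p alone there were 2 in the average, 5 lower in well watered tolerant varieties, against 3, and 3 lower in well watered indica varieties, against 1. With KHAUMEO as the only sensitive variety, chosen after seeing the data, the 3 became 0.

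Leaving out single arrays gave 0 to 2 called PIP genes in MILT1444, 0 to 1 in EMATAYIN, KHAUMEO, HUHAN3 and NIPPONBARE, 2 to 4 in the well watered tolerant contrast and 4 to 9 in the well watered F test. In every setting that kept its probe set, the average PIP1-3 change kept its sign and passed the adjusted p, at 0.52 to 1.56. Scaling to ACT1, which itself changed by -0.13, moved the median of all probe sets to 0.11, against -0.01. It turned the averages of PIP1-1 (0.072), PIP2-1 (0.016) and PIP2-5 (0.024) positive, took PIP2-6 to -0.028 (adjusted p = 0.577), and brought PIP2-2 (0.51) and PIP2-4 (0.42) past the adjusted p. The causes were not tested.

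The replicate numbers showed no clear pairing of the samples. Same-numbered arrays correlated by -0.30 to 0.20 in their deviations over 18 pairs, and 6 of 18 matched their own number best. With 3 arrays per group this cannot exclude a pairing. With the replicate block PIP1-3 was called in DOURADOAGULHA (1 PIP gene, adjusted p = 0.0434) and HUHAN3 (1 PIP gene, adjusted p = 0.0470), and no other count changed. The block could not be fitted for the well watered contrasts, which lie between varieties. The lack of detection calls limits what can be said of the dim PIP1-3 and PIP2-5 probe sets.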
